A study of Homo sapiens with 3 samples.

Results

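Keratins are the intermediate filament proteins of epithelial cells. A filament is built from pairs of an acidic type I keratin and a basic type II keratin, so cells make both kinds together, and KRT8 with KRT18 is the basic pair of simple, single-layered epithelia such as the stomach lining. Filaments are anchored at desmosomes and hemidesmosomes, resist mechanical load, and are widely used in pathology to tell epithelial tumours apart. The genes described here are 7 keratins with a row in the expression table, chosen by name with earlier results of these data known. Of type II are KRT8, KRT7 and KRT80, and of type I KRT18, KRT19, KRT17 and KRT10. They are 7 of 50868 rows, and 6 of the 7 reached 1 FPKM in some library.

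RNA was sequenced from AGS cells, a human gastric adenocarcinoma line, after 48 h with 12 µM of a compound named SFA, 18 µM of a compound named SFE, or DMSO, the vehicle control. No genetic change is named for any group. Each condition has 1 library, so the spread between cultures is unknown and no test was possible. SFA and SFE were given at different concentrations, so their values stand side by side and are not compared with each other. What the code names stand for is not given in the sources used here.

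Total counts were 13639844 with SFA, 13644676 with SFE and 18767232 with DMSO. FPKM is the count scaled by the gene's length in kilobases and by the library's total. Ratios to DMSO are ratios of counts divided by the library's total, with 95% exact conditional binomial (Clopper-Pearson) intervals that cover counting error only. A gene is said to lie past a fold limit when its difference in log2(FPKM + 1) reaches that limit, a scale that understates changes of low genes. In a bulk culture, fewer cells expressing a gene and less RNA per cell cannot be told apart. The libraries held little of the RNA that usually goes with epithelial keratins: of 9 other epithelial markers, ELF3 (3.56 FPKM with SFA, 3.37 with SFE and 4.38 with DMSO) and CLDN4 (1.97, 1.72 and 1.48 FPKM) alone reached 1 FPKM in any library. EPCAM stood at 0.223 FPKM with SFA, 0.0685 with SFE and 0.336 with DMSO, CDH1 at 0.162, 0.0811 and 0.147, and ESRP1 had no counts in any library. Levels of EPCAM and, as given further on, KRT19 this low are unusual for a gastric adenocarcinoma line, the labels do not account for them, and the cells are called AGS here by their label. Of 9 markers of squamous keratinocytes, such as KRT5, KRT14 and TP63, none reached 1 FPKM. Among 9 fibroblast markers 4 reached 1 FPKM, and the FPKM of the list summed to 16.9 with SFA, 20.1 with SFE and 31.1 with DMSO. Of these, COL3A1 stood at 1.49, 2.40 and 8.47 FPKM, PDGFRB at 2.63, 2.99 and 6.39 FPKM, COL1A1 at 5.96, 7.16 and 11.3 FPKM and THY1 at 6.48, 7.25 and 4.29 FPKM, while PDGFRA had no counts in any library. Their part in the keratin values was not tested. No leukocyte or endothelial marker reached 1 FPKM.

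Keratin genes arose by duplication and have many pseudogene copies, so how alike the sequences are bears on which reads can be told apart. Of 50 rows named as KRT8 pseudogenes, 7 were picked by a minimum count and compared with KRT8 in the GENCODE 29 transcripts. Over at least 98.3% of the coding sequence, these 7 copies were between 86.3% (KRT8P12) and 97.1% (KRT8P3) identical to KRT8. Their longest identical runs measured between 53 bases in KRT8P12 and 133 bases in KRT8P33. KRT8 and KRT7, an expressed type II keratin of the same cluster, could be aligned over 74.7% of the KRT8 coding sequence, were 78.0% identical there, and shared no identical run longer than 41 bases. KRT18 and its copy KRT18P12 were 88.4% identical with a longest run of 47 bases, and KRT17 and its copy KRT17P6 86.4% with a run of 84 bases. How reads that match several copies were counted is not given in the sources used here.

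KRT8, the type II member of the simple epithelial pair, was lower with both compounds. It stood at 223 FPKM (43328 counts) with SFA, 232 FPKM (44976 counts) with SFE and 416 FPKM (111201 counts) with DMSO. That is 1.87-fold lower with SFA than with DMSO (95% counting interval 1.84 to 1.89) and 1.80-fold lower with SFE (1.78 to 1.82). The gene spans chromosome 12 from 52897187 to 52949954 on the minus strand (hg38, as are the positions of the other genes). KRT8 alone took 0.318% of all counts with SFA, 0.330% with SFE and 0.593% with DMSO, and it ranked 80th, 74th and 39th among protein-coding genes by FPKM. Of the 11680 genes that reached 1 FPKM in any library, 1.74% had a lower difference from DMSO than KRT8 with SFA and 1.62% with SFE.

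KRT18, the type I partner of KRT8, was lower by nearly the same factor. Its level was 292 FPKM (26283 counts) with SFA, 294 FPKM (26485 counts) with SFE and 534 FPKM (66055 counts) with DMSO. The difference from DMSO was 1.83-fold lower with SFA (1.80 to 1.85) and 1.81-fold lower with SFE (1.79 to 1.84). By deposited FPKM it was the highest keratin in every library, ranking 55th, 52nd and 28th among protein-coding genes with SFA, SFE and DMSO. KRT18 lies at chromosome 12 from 52948871 to 52952901, beside KRT8 in the cluster of type II genes and not with the other type I genes on chromosome 17.

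**Figure D1:**
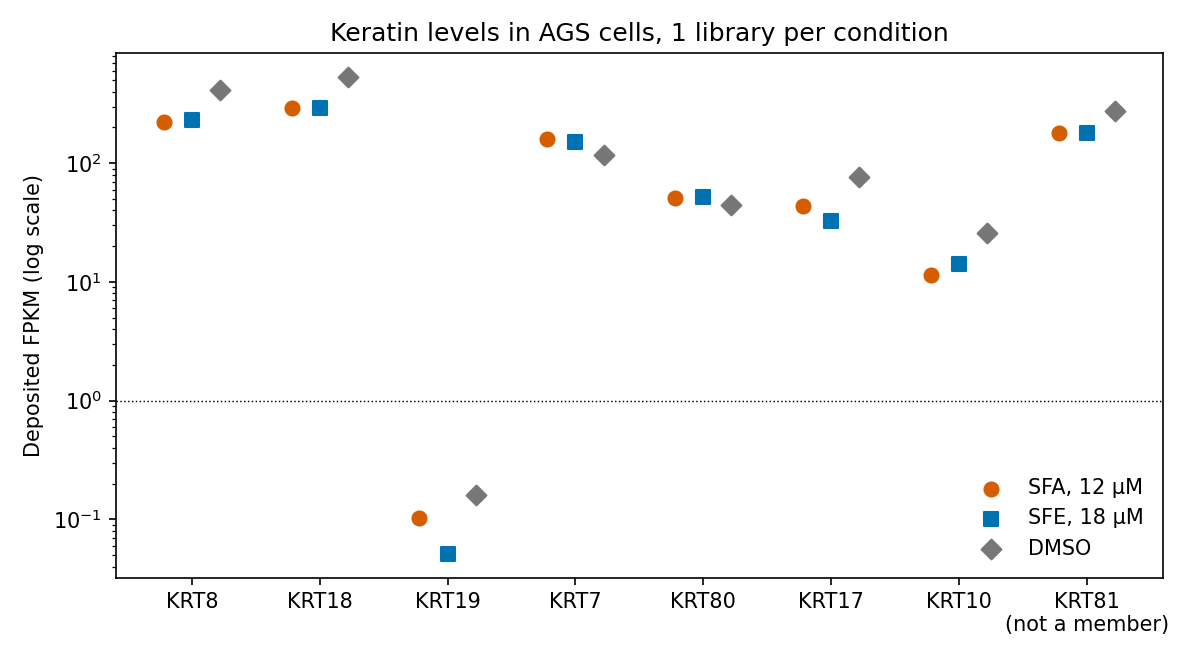
Deposited FPKM (log axis) of the 7 keratins and of KRT81 in the SFA, SFE and DMSO libraries, 1 point per library; the dotted line is 1 FPKM. KRT8, KRT18, KRT17, KRT10 and KRT81 lie higher with DMSO than with either compound, KRT7 and KRT80 lie lower with DMSO, and KRT19 stays under 1 FPKM.

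The ratio of KRT8 to KRT18 FPKM was 0.764 with SFA (counting interval 0.752 to 0.775), 0.787 with SFE (0.775 to 0.799) and 0.780 with DMSO (0.772 to 0.787). The intervals overlapped, but the SFA ratio itself lay below the DMSO interval, and the SFE ratio lay within it. Overlap of intervals does not show that the ratios are equal. By the pair of log2 count ratios to DMSO, KRT18 was the nearest to KRT8 of 2757 protein-coding genes at 10 FPKM or more with DMSO, at a Euclidean distance of 0.03 where the median gene lay at 1.27. That likeness rests on 2 numbers per gene from 3 libraries. Outside the keratins described here, the genes nearest to the mean of KRT8 and KRT18 were CANX, an endoplasmic reticulum chaperone gene, HIF1A, the hypoxia-inducible factor subunit gene, and CHRNA9, an acetylcholine receptor subunit gene, at distances of 0.05, 0.05 and 0.06 among 2752 candidates.

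KRT8 and KRT18 lie head to head on opposite strands, and the outermost annotated start of KRT8 reaches into KRT18. The KRT8 transcript that GENCODE 29 marks as principal starts at 52906618, outside KRT18. The overlap thus comes from other annotated KRT8 transcripts. In GENCODE 29 their exons share 525 bases, which is 7.63% of the merged exons of KRT8 and 16.3% of those of KRT18. Since the use of strand in counting is not given in the sources used here, reads there cannot be assigned with certainty. Rows named as KRT8 pseudogenes, 50 in all, summed to 251 counts with SFA, 312 with SFE and 441 with DMSO, or 0.579%, 0.694% and 0.397% of the KRT8 count. Their summed ratio to DMSO was 0.783 with SFA (0.668 to 0.916) and 0.973 with SFE (0.839 to 1.13), against 0.536 and 0.556 for KRT8 itself. The 66 KRT18 pseudogene rows summed to 94, 101 and 172 counts with SFA, SFE and DMSO.

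KRT19, the smallest keratin and a usual companion of KRT8 in ducts and glands, was barely detected. It had 6 counts (0.103 FPKM) with SFA, 3 counts (0.0514 FPKM) with SFE and 13 counts (0.162 FPKM) with DMSO, and so did not enter the genes counted against the fold limits. The ratio to DMSO was 0.635 with SFA (0.198 to 1.79) and 0.317 with SFE (0.0580 to 1.16). Both intervals include 1, so no difference was detectable at this depth.

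KRT7, a type II keratin of ducts and of many adenocarcinomas, was higher with both compounds. It stood at 161 FPKM (15026 counts) with SFA, 151 FPKM (14112 counts) with SFE and 118 FPKM (15144 counts) with DMSO. The raw counts are nearly equal because the DMSO library is deeper. Per library total, KRT7 was 1.37-fold higher with SFA than with DMSO (1.33 to 1.40) and 1.28-fold higher with SFE (1.25 to 1.31), both short of a limit of 1.5-fold. Its rank among protein-coding genes was 125th with SFA, 129th with SFE and 176th with DMSO. The gene lies at chromosome 12 from 52232520 to 52252186. Its antisense transcript KRT7-AS, listed under a clone name, shares 282 exon bases with it and stood at 65.0 FPKM with SFA, 64.9 FPKM with SFE and 51.9 FPKM with DMSO. KRT7-AS was thus 1.25-fold higher with each compound (1.17 to 1.34 in both), and reads from the strands cannot be told apart here.

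KRT80, a type II keratin that in other epithelia is found near desmosomes, was also higher, by less. Its level was 51.2 FPKM (6455 counts) with SFA, 51.5 FPKM (6495 counts) with SFE and 44.3 FPKM (7682 counts) with DMSO. The ratio to DMSO was 1.16 with SFA (1.12 to 1.195) and 1.16 with SFE (1.12 to 1.202). Of the 11680 genes, 76.3% had a lower difference from DMSO than KRT80 with SFA and 75.7% with SFE. KRT80 overlaps no other listed gene (chromosome 12, 52168996 to 52192000).

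KRT17, a type I keratin of basal cells and of wounded or stressed epithelium, was lower with both compounds. It stood at 43.5 FPKM (3288 counts) with SFA, 32.9 FPKM (2487 counts) with SFE and 76.9 FPKM (8005 counts) with DMSO. The level was 1.77-fold lower with SFA than with DMSO (1.699 to 1.84) and 2.34-fold lower with SFE (2.24 to 2.45). With SFE, 0.599% of genes had a lower difference from DMSO than KRT17, and with SFA 2.22%. KRT17 overlaps no other listed gene (chromosome 17, 41619437 to 41624842), and its 8 pseudogene rows summed to 73 counts with SFA, 84 with SFE and 278 with DMSO. Most of those were KRT17P6, with 60, 68 and 240 counts.

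KRT10, a type I keratin that in skin marks cells leaving the basal layer, was the lowest of the 6 expressed genes and was lower with both compounds. Its level was 11.4 FPKM (330 counts) with SFA, 14.2 FPKM (412 counts) with SFE and 25.8 FPKM (1028 counts) with DMSO. The level was 2.26-fold lower with SFA than with DMSO (1.998 to 2.57) and 1.81-fold lower with SFE (1.62 to 2.04). The gene lies at chromosome 17 from 40818117 to 40822595 on the minus strand. TMEM99, on the opposite strand, shares 56 exon bases with KRT10 and lay on the other side of DMSO, with 296 counts with SFA, 359 with SFE and 306 with DMSO. Per library total TMEM99 was 1.33-fold higher with SFA (1.13 to 1.57) and 1.61-fold higher with SFE (1.38 to 1.89).

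The RefSeq promoter table held 2 of the 7 genes, KRT8 and KRT10. The KRT8 window belongs to a start 19851 bases from that of its GENCODE principal transcript and is not shown. The start site of the KRT10 window lies 19 bases from the start of its principal transcript, and the window is shown as the start region of the gene past the 2-fold limit with SFA (GRCh38.p14 chr17:40822565-40822864, minus strand, RefSeq). Capitals mark TATAAA, the TATA box.
KRT10: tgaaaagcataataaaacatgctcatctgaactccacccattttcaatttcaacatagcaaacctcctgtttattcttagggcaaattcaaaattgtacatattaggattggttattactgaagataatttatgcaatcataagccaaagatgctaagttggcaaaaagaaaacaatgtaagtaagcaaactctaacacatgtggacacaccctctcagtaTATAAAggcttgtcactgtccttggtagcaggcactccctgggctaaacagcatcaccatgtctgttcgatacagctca
TATAAA occurred on either strand in 11.5% of 35116 promoter windows of the same length. The KRT10 window held no GGGCGG (SP1; in 44.95% of windows), TGANTCA (AP-1; 7.71%), CGGAAGT (ETS; 6.83%) or GGAATG (TEAD; 14.0%), searched on both strands. A match or its lack describes these letters in this window only.

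**Figure D2:**
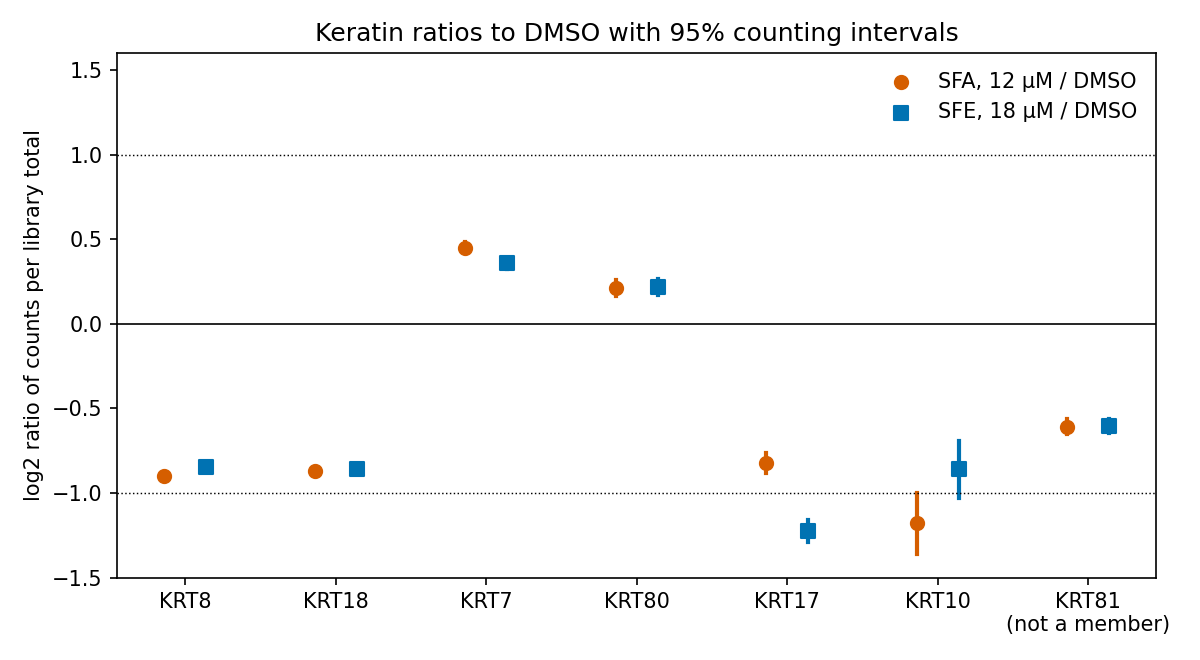
Log2 ratio of counts per library total, SFA and SFE each over DMSO, for the 6 expressed keratins and KRT81. Points are single library pairs, bars are 95% counting intervals (hidden by the point where short), and dotted lines mark 2-fold. KRT7 and KRT80 lie above 0, and the other genes below it with both compounds.

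Set against all genes, 1 of the 6 keratins tested was at least 2-fold lower with SFA, KRT10, where 1.34% of all genes were, and 1 was at least 2-fold lower with SFE, KRT17, where 1.01% were. None was at least 2-fold higher, where 1.36% of all genes were with SFA and 1.37% with SFE. At a limit of 1.5-fold, KRT8, KRT18, KRT17 and KRT10 were lower with each compound, 4 of 6, where 4.67% of all genes were with SFA and 3.48% with SFE. No keratin of the 6 was at least 1.5-fold higher, where 5.36% of all genes were with SFA and 5.34% with SFE. The median difference of the 6 was −0.84 on the log2(FPKM + 1) scale with SFA and −0.83 with SFE, beside 0.01 and 0.03 over all genes tested. The keratins were chosen with earlier results of these data known, so setting them beside all genes is not an independent test. SFA and SFE share the DMSO library, so a high or low value there moves both differences together. KRT8, KRT18, KRT7 and KRT10 overlap other listed genes, and leaving those out leaves KRT17 and KRT80 with values as given.

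**Figure D3:**
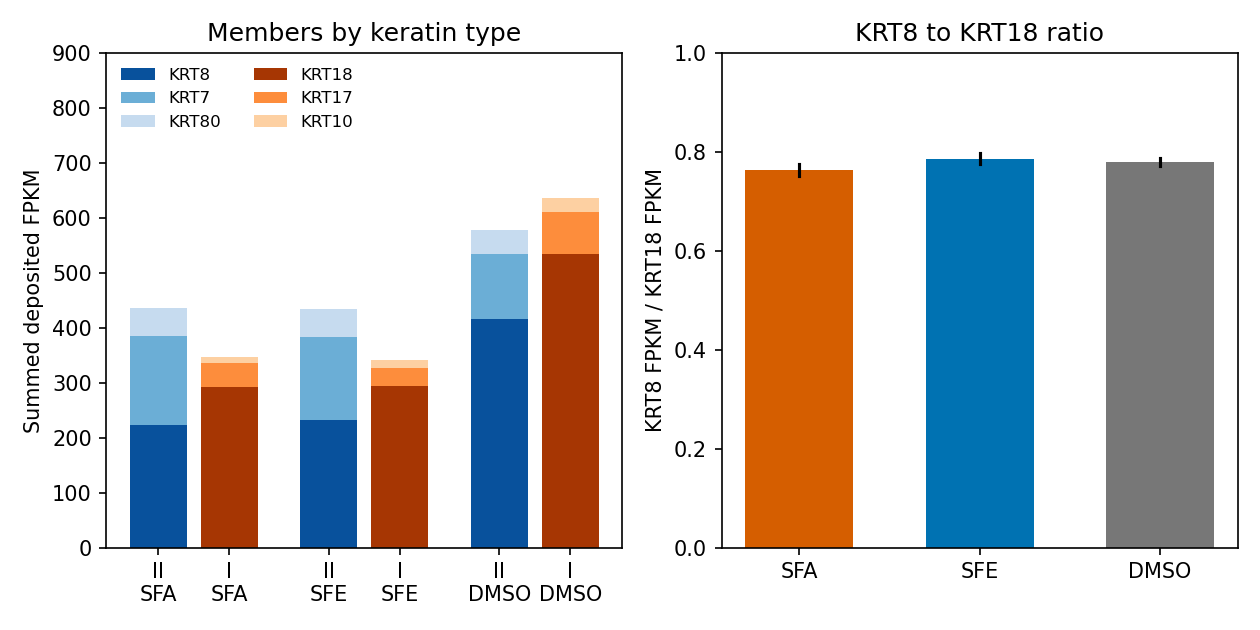
Left, deposited FPKM summed over the type II keratins (KRT8, KRT7, KRT80) and the type I keratins (KRT18, KRT17, KRT10; KRT19 is too low to draw) in the SFA, SFE and DMSO libraries. Right, KRT8 FPKM over KRT18 FPKM in each library, with 95% counting intervals as black lines. Type I sums are lower than type II sums with SFA and SFE and higher with DMSO, while the KRT8 to KRT18 ratio lies between 0.764 and 0.787.

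Because filaments pair the types, the members were also summed by type. The type II keratins summed to 436 FPKM with SFA, 434 with SFE and 579 with DMSO. The type I keratins summed to 347 FPKM with SFA, 342 with SFE and 637 with DMSO. By deposited FPKM the type I sum was thus 1.83-fold lower with SFA and 1.86-fold lower with SFE than with DMSO. The type II sum was 1.33-fold lower with each. The fold of the type II sum depends on the gene lengths used, and sums by other lengths are given further on. The ratio of type II to type I was 1.25 with SFA, 1.27 with SFE and 0.909 with DMSO. Among KRT8, KRT7 and KRT80, KRT7 made up 37.0% of the deposited FPKM with SFA, 34.8% with SFE and 20.4% with DMSO. By deposited FPKM, KRT8 exceeded KRT7 1.38-fold with SFA, 1.53-fold with SFE and 3.52-fold with DMSO. All 7 genes together took 0.694% of counts with SFA, 0.696% with SFE and 1.11% with DMSO.

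Levels between keratins depend on the gene length behind the deposited FPKM. The deposited values imply a length of 14233 bases for KRT8 and 6593 for KRT18, where the merged GENCODE 29 exons measure 6881 and 3218 bases and the principal transcripts 1882 and 1562 bases. Per principal transcript length, KRT8 was above KRT18 in every library, with a ratio of 1.37 with SFA, 1.41 with SFE and 1.40 with DMSO. The ratio of type II to type I on that scale was 1.74 with SFA, 1.79 with SFE and 1.45 with DMSO, so it was again higher with each compound, but the type II sum now exceeded the type I sum with DMSO too. KRT17 and KRT80 changed places by deposited FPKM: KRT80 stood above KRT17 with SFA and with SFE, and below it with DMSO. Per principal transcript length KRT17 was at 159 with SFA, 120 with SFE and 281 with DMSO, and KRT80 at 123, 123 and 106, so KRT17 stayed above KRT80 with SFA on that scale. On the same scale KRT8 was at 1688 with SFA, 1751 with SFE and 3148 with DMSO, and KRT7 at 628, 590 and 460. KRT8 thus exceeded KRT7 by more than it did by deposited FPKM, and KRT7 made up less of the type II sum. Ratios of 1 gene between libraries are not affected by its length.

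Of 55 keratin genes listed by name, 29 of type I and 26 of type II, 8 reached 1 FPKM in any library, 20 were detected below that, and 27 had no counts. The members outside the 7 described that reached 1 FPKM were KRT81 and KRT86, type II keratins of hair that lie close to KRT7. KRT81 stood at 179 FPKM (6174 counts) with SFA, 180 FPKM (6191 counts) with SFE and 273 FPKM (12945 counts) with DMSO. By deposited FPKM it lay above KRT7 in every library, but per principal transcript length it lay below, at 235 with SFA, 235 with SFE and 358 with DMSO, against 628, 590 and 460 for KRT7. It was 1.52-fold lower with SFA (1.48 to 1.57) and with SFE (1.47 to 1.57). KRT86 had 93 counts with SFA, 106 with SFE and 93 with DMSO, a ratio of 1.38 with SFA (1.02 to 1.85) and 1.57 with SFE (1.18 to 2.09). With KRT81 and the other listed keratins added, the type II sum was 618 FPKM with SFA, 617 with SFE and 854 with DMSO, and the type I sum 348, 343 and 638 FPKM. The ratio of type II to type I was then 1.77 with SFA, 1.80 with SFE and 1.34 with DMSO, so type II exceeded type I with DMSO too. KRT81 lies within the annotated span of KRT86 on the opposite strand, but their exons share 0 bases. The coding sequences of KRT81 and KRT86 share an identical run of 605 bases, so the split of reads between them is uncertain. The shared stretch is shown by 60 bases of it, identical in both genes (bases 757 to 816 of the KRT81 coding sequence, exon 5 of 9, minus strand, hg38 chr12:52288068-52288127, GENCODE 29).
KRT81: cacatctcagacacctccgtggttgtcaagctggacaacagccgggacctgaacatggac
KRT16, which like KRT17 appears in stressed epithelium, stayed at 0.728 FPKM with SFA, 0.769 with SFE and 0.726 with DMSO. KRT20, a keratin of gastric and intestinal lining cells, had 0 counts with SFA, 2 with SFE and 0 with DMSO.

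**Figure D4:**
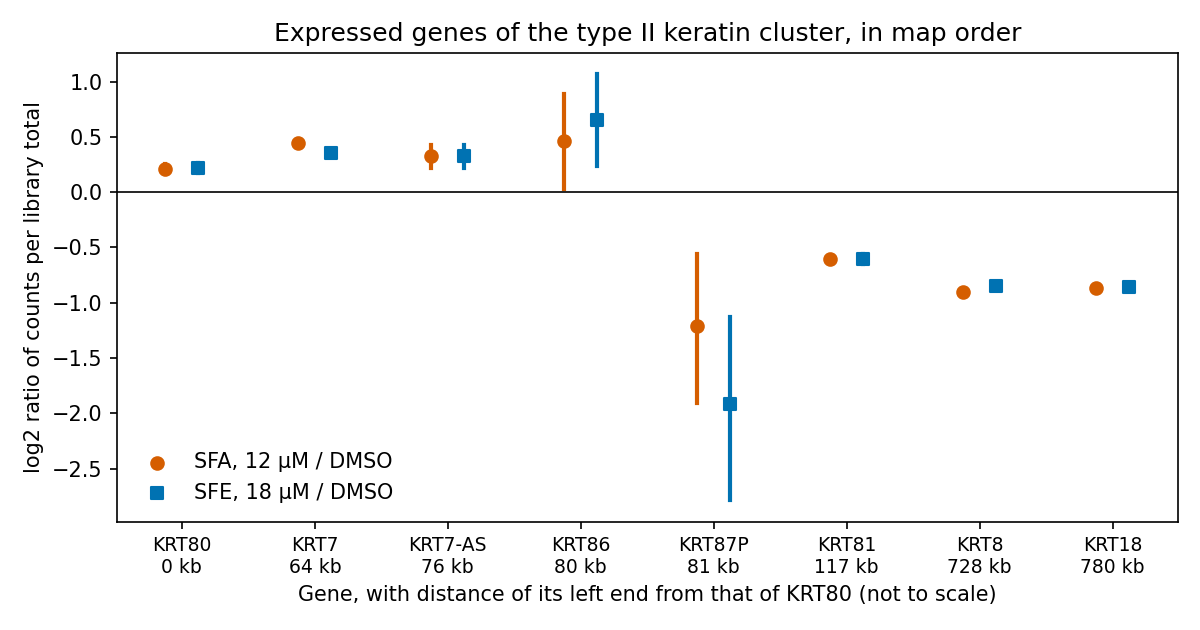
Log2 ratio of counts per library total, SFA and SFE over DMSO, for 8 genes of the type II keratin cluster. They are those at 1 FPKM or more in any library, in order of their left ends and not to scale. Bars are 95% counting intervals. The coding sequence of KRT86 reaches beyond KRT81. KRT80, KRT7, KRT7-AS and KRT86 lie above 0, and KRT87P, KRT81, KRT8 and KRT18 below it, with both compounds. KRT87P reached 1 FPKM only with DMSO.

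The type II cluster between KRT80 and KRT18 spans 784 kb and holds 50 listed rows, 8 of them at 1 FPKM or more in any library. In order of their left ends, KRT80, KRT7, KRT7-AS and KRT86 came before KRT87P, KRT81, KRT8 and KRT18. The annotated span of KRT86 is long, however, from 52249300 to 52309163. A stretch of its coding sequence lies at 52305261 to 52305320, beyond the right end of KRT81 at 52291534. By that stretch KRT86, higher with both compounds, lies among the lower genes. KRT80 and KRT7 were higher with both compounds, and KRT81, whose left end lies 33.7 kb beyond the right end of KRT7, was lower, as were KRT8 and KRT18 at the far end. KRT87P, a pseudogene whose exons share 32 bases with those of KRT7, had 26 counts with SFA, 16 with SFE and 83 with DMSO.

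Among the genes that anchor keratin filaments, DSP stood apart from the rest of its list. DSP encodes desmoplakin, which ties keratin to the desmosome, and stood at 12.4 FPKM with SFA, 14.9 with SFE and 22.4 with DMSO. The ratio to DMSO was 0.552 with SFA (0.527 to 0.578) and 0.665 with SFE (0.637 to 0.695). The log2(FPKM + 1) difference with SFE was −0.56, just inside the 1.5-fold limit. Of 7 desmosome genes tested out of 14, DSP was at least 1.5-fold lower with SFA, where 4.67% of all genes were, and none was with SFE, where 3.48% were, so these counts are near those shares. The list's median was 0.02 with SFA and −0.12 with SFE. JUP, the plakoglobin gene, stood at 44.4, 42.9 and 43.8 FPKM with SFA, SFE and DMSO, PKP3, a plakophilin gene, at 19.7, 21.2 and 24.7 FPKM, and PERP, a desmosomal membrane protein gene, at 41.3, 42.04 and 47.8 FPKM. PKP2 stood at 2.54, 1.90 and 2.16 FPKM.

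No gene of the hemidesmosome and plakin list, 8 tested of 9, passed 1.5-fold with either compound, a count that the shares of all genes (5.36% higher and 4.67% lower with SFA, 5.34% and 3.48% with SFE) do not set apart. PLEC, which encodes plectin, a linker between keratin and other cell structures, stood at 89.2 FPKM with SFA, 87.9 with SFE and 68.4 with DMSO, a ratio of 1.30 with SFA (1.29 to 1.32) and 1.29 with SFE (1.27 to 1.30). ITGB4, the integrin beta-4 gene of hemidesmosomes, stood at 8.32, 9.0001 and 11.1 FPKM, and CD151, a tetraspanin gene, at 44.2, 29.1 and 29.4 FPKM. MACF1 stood at 3.20, 3.70 and 3.99 FPKM in the same order. CD151 fell just short of 1.5-fold on the log2(FPKM + 1) scale with SFA, where its count ratio was 1.51 (1.45 to 1.56). Plectin RNA thus lay on the other side of DMSO from KRT8 and KRT18.

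Other intermediate filament genes, 9 tested of 14, held 0 at least 1.5-fold lower with SFA, where 4.67% of all genes were, and 1 with SFE, where 3.48% were, again near those shares. That was NEFH, a neurofilament gene, at 1.36 FPKM with SFA, 0.794 with SFE and 1.72 with DMSO. VIM, which encodes vimentin, the filament protein of mesenchymal cells and of many cultured lines, stood at 82.4 FPKM with SFA, 122 with SFE and 84.4 with DMSO. The vimentin ratio to DMSO was 0.977 with SFA (0.954 to 1.001) and 1.44 with SFE (1.41 to 1.47). VIM overlaps another listed gene, as do SYNC (1.62, 1.86 and 2.55 FPKM) and DES (2.71, 2.83 and 3.65 FPKM). Nuclear lamin genes were near DMSO, LMNA at 55.6 FPKM with SFA, 54.6 with SFE and 52.7 with DMSO.

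**Figure D5:**
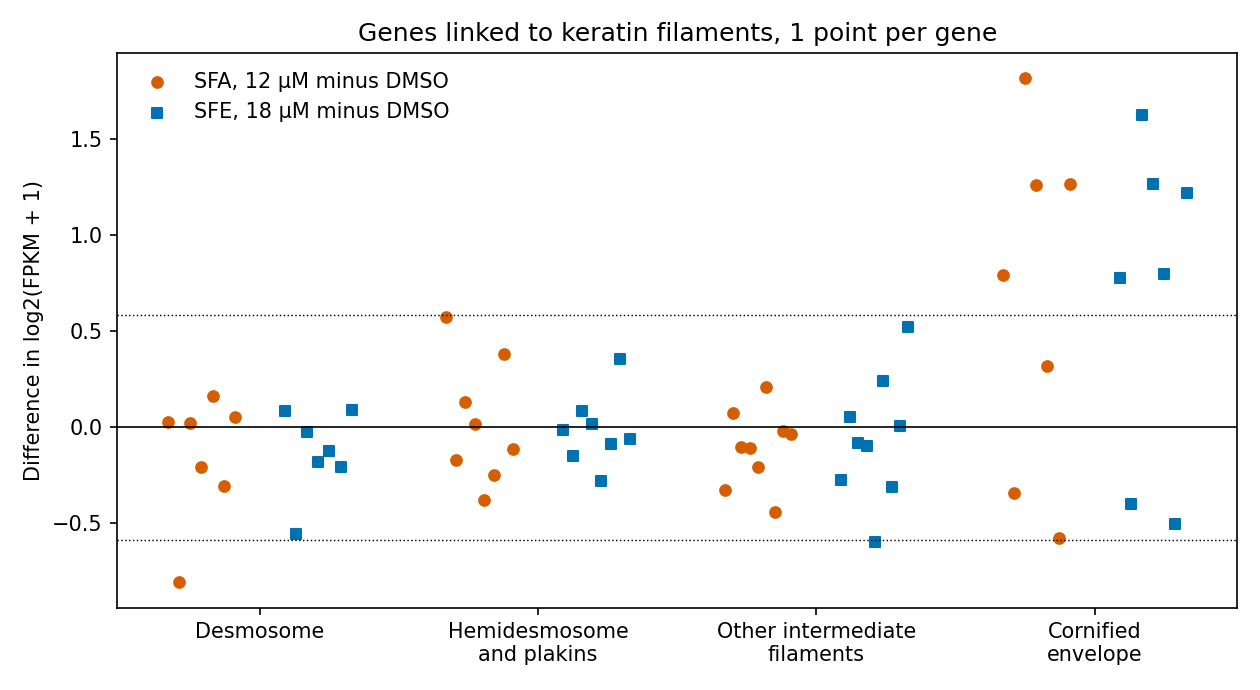
Difference in log2(FPKM + 1), SFA minus DMSO and SFE minus DMSO, for each tested gene of 4 lists tied to keratin filaments, 1 point per gene; dotted lines mark 1.5-fold. DSP is the desmosome gene below the lower line with SFA, and the cornified envelope list holds the highest points, led by PI3.

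Cornified envelope genes encode proteins cross-linked under the membrane of squamous cells, and several of them serve elsewhere too. Those tested lay mostly on the other side of DMSO from KRT8 and KRT18, and on the same side as KRT7. Of 7 tested out of 18, 4 were at least 1.5-fold higher with SFA, where 5.36% of all genes were, and 5 with SFE, where 5.34% were. None was that much lower, where 4.67% of all genes were with SFA and 3.48% with SFE. The list's medians were 0.79 and 0.80. The list was chosen with earlier results of these data known. TGM2, counted among the higher genes, passed the filter only through the SFA and SFE libraries, and TGM1 only through DMSO. The filter thus favoured the directions of these genes, and TGM2 adds no support to the count. S100A10, an annexin A2 partner, stood at 131 FPKM with SFA, 132 with SFE and 54.3 with DMSO. TGM2, a transglutaminase gene, was at 3.02, 2.90 and 0.673 FPKM, PI3, the protease inhibitor elafin, at 6.10, 5.21 and 1.02 FPKM, and S100A11 at 126, 177 and 101 FPKM. TGM1, the transglutaminase gene of skin, lay the other way, at 0.555, 0.636 and 1.32 FPKM, which falls just short of 1.5-fold on the log2(FPKM + 1) scale but is a count ratio of 0.421 with SFA (0.298 to 0.585) and 0.482 with SFE (0.348 to 0.659). CNFN, the cornifelin gene, was the other tested gene lower with both compounds, with 15 counts with SFA, 14 with SFE and 30 with DMSO. Its count ratio was 0.688 with SFA (0.344 to 1.32) and 0.642 with SFE (0.314 to 1.25), and both intervals include 1. Of the 18 genes, 10 had no counts with SFA, 9 with SFE and 9 with DMSO.

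Genes that bind keratin or act in its turnover, 17 tested of 26, held 1 gene at least 1.5-fold lower with each compound, BAG1, a co-chaperone gene, near the shares of all genes, 4.67% with SFA and 3.48% with SFE. BAG1 stood at 8.12 FPKM with SFA, 9.08 with SFE and 17.6 with DMSO. PRKCE, a protein kinase C gene, stood at 1.93, 1.74 and 1.02 FPKM, PNN, which encodes pinin, at 1.55, 1.07 and 1.93 FPKM, and TRADD, whose protein binds KRT18, at 1.78, 2.56 and 1.73 FPKM. The medians of that list were −0.01 with SFA and 0.04 with SFE. Among transcription factor genes linked to keratin expression, 17 tested of 30, 2 were at least 1.5-fold higher with each compound, where 5.36% of all genes were with SFA and 5.34% with SFE. In that list 1 gene was lower by that much, where 4.67% of all genes were with SFA and 3.48% with SFE, and the medians were −0.24 and −0.12. FOSL1, an AP-1 subunit gene, was at 2.88 FPKM with SFA, 2.08 with SFE and 0.579 with DMSO, and JUN, another AP-1 subunit gene, at 6.96, 5.82 and 3.31 FPKM. NFE2L2, the NRF2 gene, was at 3.46, 3.57 and 6.06 FPKM, and FOS at 0.822, 0.830 and 1.68 FPKM. FOSL1, counted among the higher genes, passed the filter only through the SFA and SFE libraries, and FOS only through DMSO. The filter thus favoured their directions.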

How the data were processed

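RNA of AGS cells was sequenced after ribosomal RNA removal, per the labels' protocols, in 1 library each for SFA, SFE and DMSO. HISAT2 2.0.4, StringTie 1.2.3 and hg38 are named in the submitters' processing notes, without their roles. Nothing used here names the counting tool, strand setting or annotation. Deposited counts are whole numbers per gene. Deposited FPKM is the count scaled by the library total and a fixed gene length: the lengths that the libraries imply for a gene agree to within 0.0831%.

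Where identifiers share a name, the most abundant was used. The filter of 1 FPKM in any library left 11680 genes, and the pseudocount was 1. Intervals cover counting error only: reads are not independent molecules. No test was possible, so no p-value is given. Strand, exons and transcripts come from GENCODE 29, whose gene starts and ends equal those of the table for 94.8% of matched identifiers. Genes named are the 7 keratins, other keratins at 1 FPKM, overlapping genes and copies, up to 4 genes per list with the largest difference, and the 3 nearest to KRT8 and KRT18. A few more (KRT16, KRT20, JUP, LMNA, TGM1, CNFN and the markers below 1 FPKM) were named after their values were seen. Members and lists were chosen with earlier results of these data known. Scripts used Python 3.11.15, scipy 1.17.1, biopython 1.88 and edgeR 4.0.16 (TMM factors). The code for calls and intervals was run on simulated counts with planted changes larger than those of the expressed keratins. The simulated counts had no spread between cultures, so that run checks the code and not the calls made here.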

Additional observations from a re-analysis of the deposited data

How the results depend on the processing

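With 1 library per group no replicate could be left out, and no spread between cultures is known. No paired analysis was possible because each group has 1 library and no test was run. The number of keratins past 2-fold was 1 with SFA and 1 with SFE under median-ratio scaling, TMM factors, library totals without mitochondrially encoded genes, a pseudocount of 0.1, no pseudocount, no filter, a 5 FPKM filter and added pseudogene rows. It was 4 with each compound at a limit of 1.5-fold, and 0 with SFA without genes that overlap others, since KRT10 then leaves. Of 100 single-gene differences under these settings none changed sign, and 18 moved beyond counting error. All 18 arose under median-ratio scaling or TMM factors, where most differences moved that far. Many of the 100 could not move. The filters and the omission of overlapping genes leave a gene's own difference as it was. Added pseudogene rows cannot alter KRT7, KRT80 or KRT10, which have none. The filters could not change the 2-fold count either. All tested keratins exceed 5 FPKM in some library, and KRT19 is too low to reach 2-fold with a pseudocount of 1. TMM factors gave the largest shift of the median gene, −0.05 with SFA and −0.08 with SFE, and with them KRT80 differed by 0.14 and 0.12 on the log2 scale. KRT7 then differed by 0.385 with SFA and 0.26 with SFE, against 0.45 and 0.36 by library total. KRT8 moved the other way from 0, to −0.96 and −0.94, against −0.90 and −0.84.

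Sums in FPKM depend on the gene set and length. With every listed keratin, the type II sums were 618 with SFA, 617 with SFE and 854 with DMSO. With merged exon lengths, an alternative chosen after seeing the data, type II sums were 840, 841 and 1152 and type I sums 687, 676 and 1256 with SFA, SFE and DMSO. With principal transcript lengths, also chosen after seeing the data, type II sums were 2439, 2464 and 3715, type I sums 1404, 1377 and 2561, and the KRT8 to KRT18 ratio 1.37, 1.41 and 1.40. Depth limits KRT19, with 13 counts or fewer in every library.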
